A study of Mus musculus with 21 samples.

Results

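Cyp2a4, Cyp2a5, Cyp2b9, Cyp2b10, Cyp2b13 and Cyp2c55 encode cytochrome P450 enzymes of the mouse liver, and Nr1i3 (the nuclear receptor CAR), Nr1i2 (the nuclear receptor PXR) and Por (the reductase that feeds electrons to P450 enzymes) serve them. These 9 genes, picked by symbol, are 9 of the 22520 genes in a liver RNA table. They were picked with several of their differences in double knockout liver already known, so the double knockout levels are given as a description. All 9 passed the minimum of 1 FPKM (fragments counted on a gene relative to its length and to the size of the library) in 2 columns, as did 11394 genes in all. Outside the double knockout, Cyp2b9 and Cyp2b13 reached 1 FPKM only in 8-month livers.

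Livers came from 4 genotypes on a mixed 129SV::FVB/N::C57BL/6 background. WT mice were Ezh2fl/fl with no Cre named, E1KO mice were Ezh1-/-, E2KO mice were Ezh2fl/flAlb-Cre and DKO mice were Ezh1-/-Ezh2fl/flAlb-Cre. PRC2, the complex that lays down the repressive histone mark H3K27me3, uses either Ezh1 or Ezh2 as its enzyme. The Ezh1 allele is lost throughout the animal, whereas Alb-Cre is meant to delete Ezh2 in hepatocytes, and liver cells without Cre keep Ezh2. Each genotype was sampled untreated at 2 months and at 8 months of age, and at 3 months of age after injection of CCl4, a solvent that pericentral hepatocytes turn into a toxin. The titles list 3 replicates for each group (2 for those of 8 months), but the table holds 1 value per gene and group. Age and injection change together in the comparison of CCl4 with 2 months. The sources used here do not give the dose, the time after injection or the sex of the animals.

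CAR and PXR sense foreign compounds, bile acids and steroids, pair with the receptor RXR and switch on genes of drug metabolism. Cyp2b10 is the standard CAR target in mouse liver, and Cyp2c55 is induced through CAR and PXR. Cyp2a5 oxidises coumarin and nicotine and is made mainly by hepatocytes near the central vein. Its near twin Cyp2a4 hydroxylates testosterone. Cyp2a4, Cyp2b9 and Cyp2b13 are known as genes expressed more in female than in male liver, under the control of growth hormone.

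The 5 Cyp2a and Cyp2b genes lie in 1 cluster on chromosome 7, in the order Cyp2b10, Cyp2b13, Cyp2b9, Cyp2a4 and, beyond Cyp2b23, Cyp2b19 and Cyp2g1, Cyp2a5. The 250 bases before each RefSeq start site (build GRCm38.p6) are shown because the near-identical Cyp2a4 and Cyp2a5 behaved differently across the livers. They come from chr7:26306942-26307191 for Cyp2a4, chr7:26835089-26835338 for Cyp2a5, chr7:26173159-26173408 for Cyp2b9, chr7:26061245-26061494 for Cyp2b13 and chr7:25897408-25897657 for Cyp2b10, all on the + strand. Capitals mark the bases that differ between Cyp2a4 and Cyp2a5, the bases that differ between Cyp2b9 and Cyp2b13, and, in Cyp2b10, the bases that differ from or do not align with Cyp2b9. Bases at either end that overhang the other window are not marked and stay in lower case.
Cyp2a4: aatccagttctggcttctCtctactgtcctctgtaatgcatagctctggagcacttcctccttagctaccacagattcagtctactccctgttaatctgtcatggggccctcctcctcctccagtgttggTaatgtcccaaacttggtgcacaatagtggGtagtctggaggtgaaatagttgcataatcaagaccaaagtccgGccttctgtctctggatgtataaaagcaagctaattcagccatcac
Cyp2a5: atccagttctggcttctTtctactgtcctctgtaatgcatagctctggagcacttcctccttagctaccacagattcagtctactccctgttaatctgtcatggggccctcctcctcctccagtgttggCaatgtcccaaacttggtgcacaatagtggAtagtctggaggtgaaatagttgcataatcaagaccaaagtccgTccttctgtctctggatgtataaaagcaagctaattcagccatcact
Cyp2b9: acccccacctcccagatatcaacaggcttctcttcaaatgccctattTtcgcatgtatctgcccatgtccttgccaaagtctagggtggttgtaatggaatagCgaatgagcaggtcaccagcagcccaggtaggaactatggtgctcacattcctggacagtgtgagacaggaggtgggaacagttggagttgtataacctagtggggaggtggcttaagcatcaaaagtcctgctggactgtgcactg
Cyp2b13: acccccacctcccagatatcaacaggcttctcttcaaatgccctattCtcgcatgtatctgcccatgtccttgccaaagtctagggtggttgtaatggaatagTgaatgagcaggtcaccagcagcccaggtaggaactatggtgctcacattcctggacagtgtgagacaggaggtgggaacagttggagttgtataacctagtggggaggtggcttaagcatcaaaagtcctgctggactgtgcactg
Cyp2b10: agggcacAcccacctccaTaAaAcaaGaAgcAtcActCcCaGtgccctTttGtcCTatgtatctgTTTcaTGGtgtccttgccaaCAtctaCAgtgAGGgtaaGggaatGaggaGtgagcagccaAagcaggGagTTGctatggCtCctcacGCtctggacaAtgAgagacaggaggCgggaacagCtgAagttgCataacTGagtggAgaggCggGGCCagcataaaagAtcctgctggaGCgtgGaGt

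The Cyp2a4 and Cyp2a5 windows were identical at 245 of 249 aligned bases (98.4%). The 4 substitutions were C19T, T131C, G161A and G205T, counted from 1 at the 5′ end of the Cyp2a4 window with the Cyp2a4 base first. Cyp2b9 and Cyp2b13 were identical at 248 of 250 bases (99.2%) and differed by T48C and C104T, counted in the Cyp2b9 window with its base first. Cyp2b10 shared 186 of 256 aligned positions (72.7%) with Cyp2b9, with 52 substitutions and 18 unaligned bases. All 9 genes matched a RefSeq window, and their CpG counts per window were 0 in Cyp2c55, 1 in Cyp2a4, Cyp2a5 and Cyp2b13, 2 in Cyp2b9, Nr1i3 and Nr1i2, 4 in Cyp2b10 and 21 in Por. Over 32841 such windows the median was 6, and 44.4% held at most 4, so all 9 genes but Por had few CpGs. Searched on both strands, the nuclear receptor half-site AGGTCA occurred in the Cyp2b9 and Cyp2b13 windows and in 14.0% of all windows. The STAT core motif TTCNNNGAA occurred in none of the 9 windows and in 7.02% of all. The motif TATAAA occurred in Cyp2a4, Cyp2a5 and Cyp2c55, and in 12.4% of all windows. Reads from near-identical genes are hard to place, and the sources used here do not say how they were divided. The split between Cyp2a4 and Cyp2a5 is therefore uncertain, as is that between Cyp2b9 and Cyp2b13.

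Column totals ran from 531761 to 674119 FPKM. Cyp2e1, an abundant P450 of hepatocytes, stood at 151 to 7466 FPKM over the columns. Ezh1 stood at 1.96 to 2.5 FPKM in WT and E2KO and at 0.06 to 0.27 in DKO. In E1KO it stood at 0.07 at 2 months and 0.20 with CCl4. The column labelled E1KO at 8 months held 0.88 FPKM of Ezh1, 43.1% of WT, and 465 FPKM of 12 skeletal muscle markers, against 1.31 to 2.02 in the other 11 columns. Calls made with all columns, of the 9 genes and of genes named below, held without this column unless the text says otherwise. Ezh2 in E2KO was at 69.0% to 86.8% of WT. In DKO it was at 0.74 FPKM against 1.11 in WT at 2 months, 1.27 against 0.91 at 8 months and 2.51 against 5.68 with CCl4. DKO at 8 months was thus above WT, at 139.6%, for a gene that Alb-Cre is meant to delete in hepatocytes. Whole-liver RNA cannot show how far the deletion went.

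Cyp2a4 had the widest contrast between DKO and the rest. At 2 months it stood at 0.39 FPKM in WT, 14.35 in E1KO, 0.48 in E2KO and 124 in DKO. The livers of 8 months held 1.65, 4.90, 1.60 and 124 FPKM in the same order of genotypes. Those given CCl4 held 3.36, 2.08, 0.84 and 191 FPKM. The 3 DKO columns were the highest of the 12 and did not overlap the others, and E1KO at 2 months came next. The fitted DKO difference from WT was 5.84 on the log2(FPKM+1) scale. The DKO columns lay within the spread of the gene (residual SD 0.88) from one to the next. The steps from DKO to E1KO at 2 months and from there to E1KO at 8 months exceeded it, and the other 9 neighbouring steps in the order of levels did not.

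Cyp2a5 was abundant in every untreated liver and did not follow Cyp2a4. Its levels at 2 months were 333 FPKM in WT, 409 in E1KO, 528 in E2KO and 406 in DKO. By 8 months these were 893, 839, 669 and 1331 FPKM. After CCl4 they were 75.7, 2.42, 31.2 and 225 FPKM. The 4 CCl4 columns were the lowest and the 4 columns at 8 months the highest, with no overlap between conditions. Cyp2a5 in E1KO with CCl4 was at 0.59% of its 2-month level, and in DKO with CCl4 at 55.5%. The steps from DKO to WT with CCl4 and from E2KO to E1KO with CCl4 exceeded the residual SD of 1.46, and the other 9 steps did not.

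The summed level of Cyp2a4 and Cyp2a5 does not depend on how reads were split between them, provided that each shared read was counted once. Cyp2a4 made up 0.09% to 0.12% of the sum in WT and E2KO at 2 months, 3.39% in E1KO and 23.4% in DKO. Its share at 8 months was 0.18% to 0.58% in the 3 other genotypes and 8.5% in DKO. With CCl4 the share was 4.25% in WT, 2.62% in E2KO, 46.2% in E1KO and 45.9% in DKO. The near-equal shares of E1KO and DKO with CCl4 came from unequal sums, of 4.50 FPKM in E1KO and 416 in DKO. At 2 months the sum was 333 FPKM in WT and 530.3 in DKO, with 423 in E1KO and 528 in E2KO between them. The DKO level of Cyp2a4 at that age was 318.7 times that of WT, while its summed level was close to that of E2KO. In the other conditions DKO had the highest sum. At 8 months it was 1454 FPKM against 671 to 894 in the other genotypes. With CCl4 it was 416 FPKM against 79.1 in WT, 32.1 in E2KO and 4.50 in E1KO. The fitted DKO difference of the sum from WT was 1.25 (SE 0.97) on the log2(FPKM+1) scale.

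**Figure D1:**
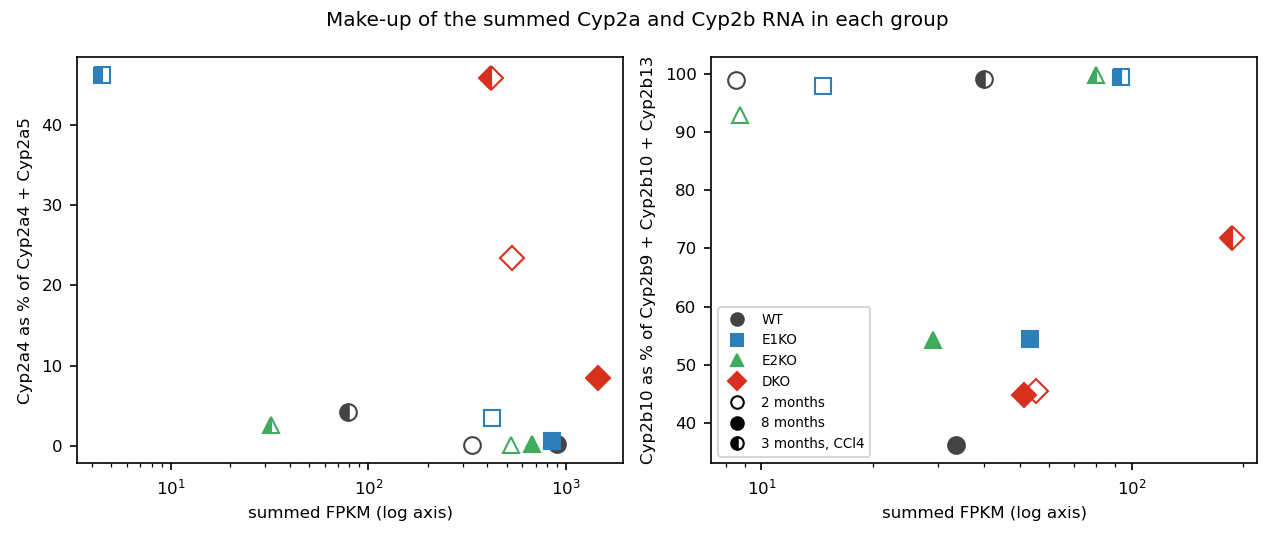
Share of Cyp2a4 in the summed Cyp2a4 and Cyp2a5 level (left, percent) and of Cyp2b10 in the summed level of the 3 Cyp2b genes (right, percent) against that sum in FPKM on a log axis. Each point is 1 group, with colour and shape for genotype and filling for condition. The DKO points at 23.4% and 45.9% on the left sit at sums of 530.3 and 416 FPKM, whereas E1KO with CCl4 at 46.2% sits at 4.50 FPKM.

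Cyp2b9 was near 0 in young liver of every genotype but DKO, and well above 0 in every genotype at 8 months. The 2-month livers held 0.09 FPKM in WT, 0.30 in E1KO, 0.51 in E2KO and 27.4 in DKO. The 8-month livers held 14.8, 19.4, 12.4 and 25.1 FPKM. In CCl4-treated liver the levels were 0.35, 0.56, 0.22 and 51.2 FPKM. Thus 6 columns were high, the 3 of DKO and the 3 others of 8 months, and 6 were low. Only 1 step in the order of levels, from E2KO at 8 months at the bottom of a high set of 6 columns to E1KO with CCl4 at the top of a low set of 6, exceeded the residual SD of 1.24. The fitted DKO difference from WT was 3.57 on the log2(FPKM+1) scale. Condition by condition, the DKO excess over WT on that scale was 4.71 (2 months), 0.73 (8 months) and 5.27 (CCl4).

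Cyp2b13, whose start region differs from that of Cyp2b9 at 2 of 250 bases, kept to lower levels. In young liver it was listed at 0 FPKM in WT and stood at 0.02 in E1KO, 0.11 in E2KO and 2.58 in DKO. Older liver of 8 months held 6.63, 4.80, 0.85 and 3.12 FPKM. The CCl4 columns held 0.01, 0.02, 0.02 and 1.59 FPKM. DKO was highest at 2 months and with CCl4, but at 8 months it lay below WT and E1KO. Across the 12 columns the log2(FPKM+1) levels of Cyp2b9 and Cyp2b13 had a Pearson r of 0.85, a description over columns that share genotypes and conditions. As with Cyp2b9, 1 step in the order exceeded the residual SD (0.72), that from E2KO at 8 months to E2KO at 2 months.

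Cyp2b10 was highest with CCl4 in every genotype. Levels of 8.44 FPKM in WT, 14.3 in E1KO, 8.11 in E2KO and 25.1 in DKO were measured at 2 months. The corresponding values at 8 months were 12.2, 29.1, 15.7 and 22.9 FPKM. With CCl4 they reached 39.5, 93.1, 80.1 and 134 FPKM. The 4 CCl4 columns were the highest and overlapped no other column. Within each condition WT or E2KO was lowest and E1KO or DKO highest. Of the 11 steps in its order of levels, 5 exceeded the residual SD of 0.33, among them the step from E2KO to WT with CCl4. The fitted DKO difference from WT was 1.35.

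The summed level of the 3 Cyp2b genes changed its make-up with age and genotype. In WT, E1KO and E2KO, Cyp2b10 made up 92.9% to 98.9% of the sum at 2 months and 99.1% to 99.7% with CCl4, but 36.3% to 54.5% at 8 months. In DKO it made up 45.6% at 2 months, 44.8% at 8 months and 71.8% with CCl4. Sums for the 2-month livers were 8.53 FPKM in WT and 55.1 in DKO.

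Cyp2c55, on chromosome 19, showed DKO apart from the others in every condition. It stood at 8.89 FPKM in WT, 19.4 in E1KO, 11.3 in E2KO and 39.4 in DKO at 2 months. At the age of 8 months it stood at 16.2, 13.9, 13.3 and 69.5 FPKM. CCl4 livers had 21.4, 17.7, 10.2 and 119.6 FPKM. The 3 DKO columns were the 3 highest of the 12, each step among them and the step down to WT with CCl4 exceeded the residual SD of 0.48, and the 8 steps among the other 9 columns did not. Relative to WT the DKO level was 4.43-fold (2 months), 4.30-fold (8 months) and 5.58-fold (CCl4), and the fitted difference was 2.16.

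**Figure D2:**
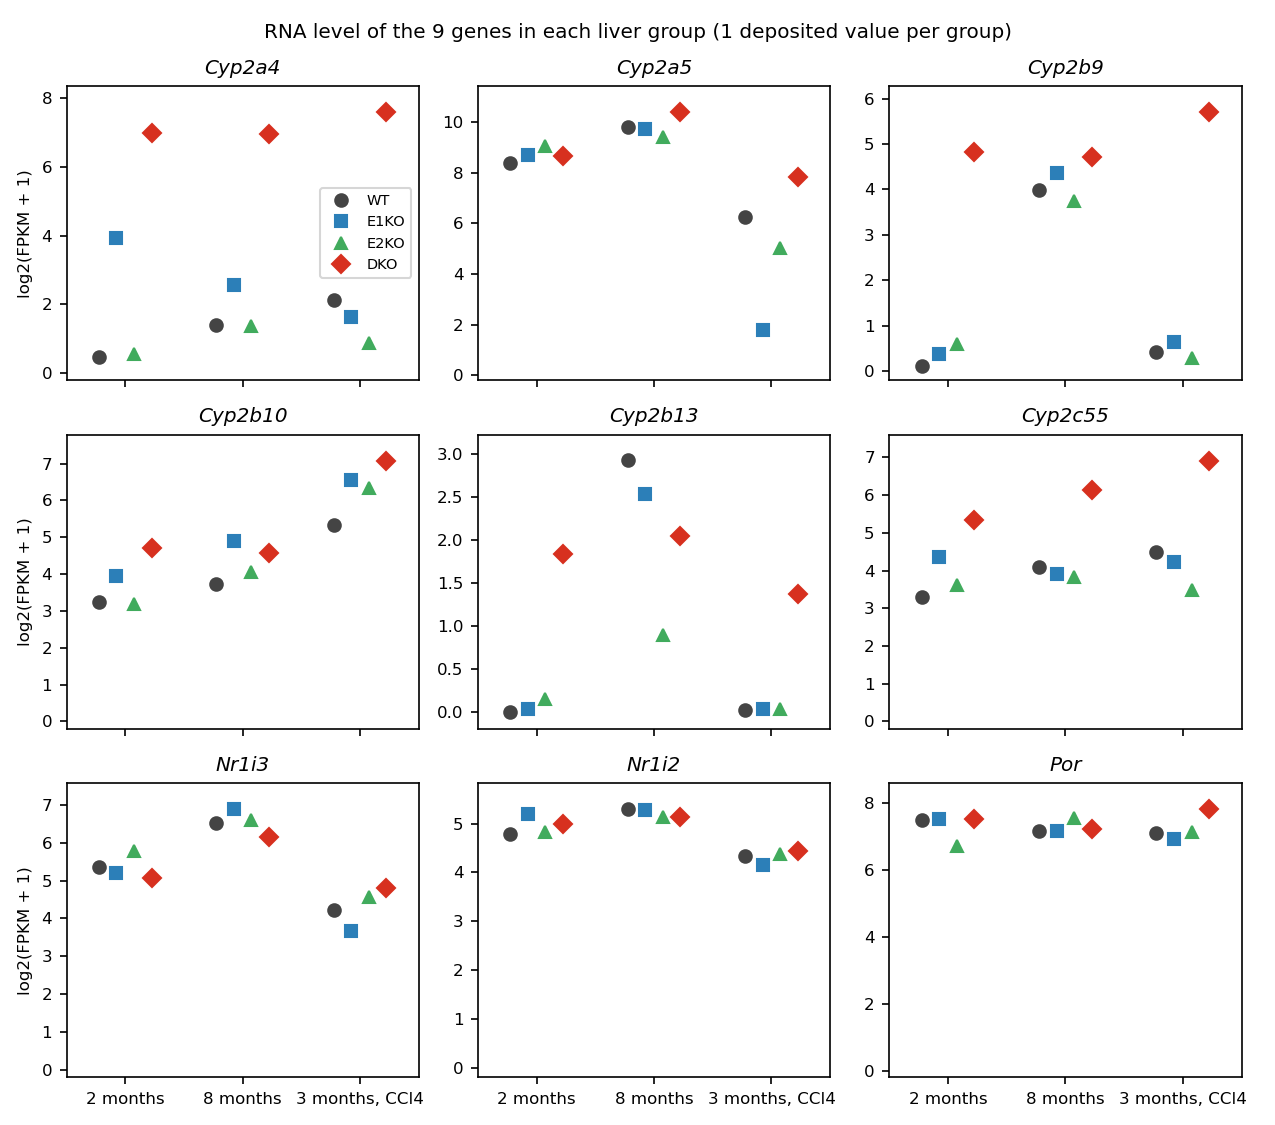
RNA level of each of the 9 genes as log2(FPKM+1) on the vertical axis, by condition on the horizontal axis, with 1 point per genotype (circle WT, square E1KO, triangle E2KO, diamond DKO). Each point is the 1 deposited value of a group, so there are no error bars. DKO stands apart for Cyp2a4 and Cyp2c55 in every condition and for Cyp2b9 at 2 months and with CCl4, whereas the CCl4 points lie lowest for Cyp2a5, Nr1i3 and Nr1i2 and highest for Cyp2b10.

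For the receptor genes DKO was not the highest genotype at either untreated age. Nr1i3 stood at 40.1 FPKM in WT, 35.95 in E1KO, 54.5 in E2KO and 32.5 in DKO at 2 months. Its 8-month values were 91.3, 117, 96.2 and 69.9 FPKM. Its values with CCl4 were 17.7, 11.6, 22.9 and 26.9 FPKM. The 3 conditions did not overlap, with 8 months highest and CCl4 lowest, whereas DKO was lowest of the genotypes at both untreated ages and highest with CCl4. The steps from E2KO to WT at 2 months and from WT to E1KO with CCl4 exceeded the residual SD of 0.42, and the other 9 did not.

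Nr1i2 moved within a narrower range. It was measured at 26.7 FPKM in WT, 35.6 in E1KO, 27.6 in E2KO and 31.0 in DKO at 2 months. The 8-month levels were 38.4, 37.95, 34.3 and 34.1 FPKM. The CCl4 levels were 19.1, 16.8, 19.7 and 20.8 FPKM. The CCl4 columns were the lowest, while the untreated ages overlapped through E1KO at 2 months. Steps of more than its small residual SD of 0.16 were 3 of 11, including that from the lowest 2-month column to the highest CCl4 column.

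Por, the electron donor of the microsomal P450 enzymes, did not follow condition. Young WT liver held 182 FPKM, E1KO 184, E2KO 105 and DKO 183. Those of 8 months held 144, 144, 188 and 151 FPKM. For CCl4 the levels were 138, 122, 140.3 and 225 FPKM. No step of 11 in its order of levels exceeded the residual SD of 0.36, and the conditions overlapped throughout. E2KO at 2 months was lowest and DKO with CCl4 highest.

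Over the DKO comparison, 4 of the 9 genes had a fitted difference from WT of at least 1 on the log2(FPKM+1) scale, all higher: Cyp2a4, Cyp2b9, Cyp2c55 and Cyp2b10. Of all tested genes 1.89% were that much higher and 0.781% that much lower, and since the genes were picked with these differences known, nothing is read from the count. Below that limit lay Cyp2a5 at 0.81 and Cyp2b13 at 0.77, followed by Por at 0.26, Nr1i2 at 0.05 and Nr1i3 at -0.03. DKO was the highest of the 4 genotypes in all 3 conditions for Cyp2a4, Cyp2b9 and Cyp2c55, as it was for 5.94% of all tested genes. It was highest in 2 of 3 conditions for Cyp2a5, Cyp2b10 and Cyp2b13 and in 1 of 3 for the receptors and Por. The DKO difference for Cyp2b9 depended on the 8-month columns, without which it was 4.99.

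The single knockouts were compared with WT over the 3 conditions. With limma on log2(FPKM+1) and Benjamini-Hochberg adjustment over all tested genes at 0.05, no gene of the 9 passed in E1KO, beside 0.0176% of all genes (2 genes). At an unadjusted p under 0.05 there were 640 genes, 1 of them among the 9. That gene was Cyp2b10, higher in E1KO in 3 of 3 conditions by a fitted 1.03 (SE 0.23, limma adjusted p = 0.575). Cyp2a4 was 36.8 times WT in E1KO at 2 months and 0.62 times WT with CCl4, with a fitted difference of 1.37 (SE 0.60, limma adjusted p = 0.871). Cyp2a5 had a fitted difference of -1.43 (SE 1.00, limma adjusted p = 0.940), and of 0.10 without E1KO with CCl4. In E2KO none of the 9 passed, beside 0% of all genes (0 called, 155 at an unadjusted p under 0.05 and none of the 9). The largest fitted difference there was -0.63 for Cyp2b13 (SE 0.50). Without the 8-month E1KO column, 0 of the 9 genes passed in either comparison and the E1KO difference of Cyp2b10 was 0.86.

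CCl4 was compared with 2 months over the 4 genotypes to ask how injured liver differed from young untreated liver. Cyp2b10 rose by 2.56 (SE 0.20, limma adjusted p = 4.09e-05) on the log2(FPKM+1) scale, and did so in 4 of 4 genotypes, by 4.68-fold in WT and 9.88-fold in E2KO. Cyp2a5 fell by 3.48 (SE 0.87, limma adjusted p = 0.00816), Nr1i3 fell by 1.04 (SE 0.25, limma adjusted p = 0.00732) and Nr1i2 fell by 0.63 (SE 0.11, limma adjusted p = 0.00145), each in 4 of 4 genotypes. The size of the Cyp2a5 fall rested in part on E1KO with CCl4, at 2.42 FPKM, without which it fell by 2.35 and still passed, and without the 3 DKO columns it fell by 4.35. The classic CAR target thus rose while the RNA of CAR itself fell. The count of 1 higher and 3 lower stood beside 33.4% of all genes higher and 24.5% lower (57.9% in all), so a call in this comparison was common. Columns of the 2 conditions did not overlap for these 4 genes, as was so for 29.6% of all genes in the higher and 22.8% in the lower direction. The median difference of the 9 genes was -0.07, against 0.07 for all genes. Without the 8-month E1KO column the count was 4 as well.

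The 5 genes that did not pass with CCl4 included Cyp2c55 at 0.63 (SE 0.29, limma adjusted p = 0.0903). It passed when E1KO at 2 months was left out (0.88, limma adjusted p = 0.0274) and when E2KO with CCl4 was left out (0.86, limma adjusted p = 0.0367). The fitted differences were 0.29 for Cyp2b9, 0.07 for Cyp2a4, -0.07 for Por and -0.14 for Cyp2b13. The summed Cyp2a4 and Cyp2a5 level fell by 3.17 (limma adjusted p = 0.0108), and so was lower however reads were split, provided that each shared read was counted once.

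**Figure D3:**
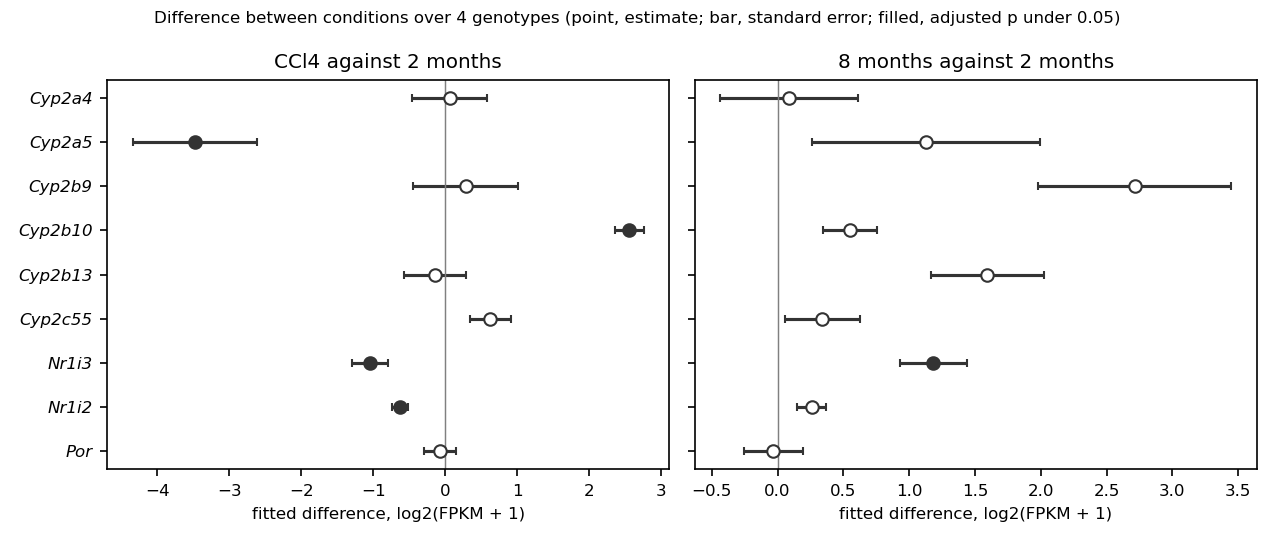
Fitted difference of CCl4 (left) and of 8 months (right) from 2 months on the log2(FPKM+1) scale for each of the 9 genes, over 4 genotypes. Points are estimates, bars are 1 standard error, and filled points passed a limma adjusted p of 0.05. Filled points are Cyp2a5, Cyp2b10, Nr1i3 and Nr1i2 on the left and Nr1i3 alone on the right.

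Markers of pericentral hepatocytes were lower with CCl4, as Cyp2a5 was. All 12 were measured, none was at 0 in any column, and their sum lay between 6662 and 8102 FPKM in the 2-month columns. With CCl4 it lay between 618 and 1095 in WT, E1KO and E2KO and was 4945 in DKO. Of the 12, 11 were lower with CCl4 by the limma test, with a median difference of -1.46. Of all genes 24.5% were lower and 33.4% higher by that test. Cyp2e1, which activates CCl4, stood at 464 FPKM in WT, 151 in E1KO, 386 in E2KO and 3857 in DKO with CCl4. The glutamate transporter Slc1a2 stood at 0.13, 0.27, 0.15 and 10.8 in the same columns. Cyp2a5 and the summed markers had the same order over the 4 CCl4 columns, from DKO through WT and E2KO to E1KO. At 8 months, where Cyp2e1 alone made up most of the marker sum (3778 to 7466 FPKM), their orders were opposite. The marker sum rose from 5829 FPKM in DKO through 7848 in WT and 8667 in E1KO to 9812 in E2KO. Cyp2a5 fell over the same columns, from 1331 FPKM in DKO through 893 and 839 to 669 in E2KO. Single markers differed, since Oat, Lhpp, Rhbg and Lgr5 were highest in DKO at 8 months, as Cyp2a5 was. Cyp2e1, Cyp1a2, Glul, Cyp27a1 and Gulo were lowest in DKO. Slc1a2 and Tbx3 lay between, and Axin2 was equal in DKO and E1KO. Of 9 periportal markers 6 were lower and 1 higher with CCl4, and their sum was 2363 to 2511 FPKM in WT, E1KO and E2KO and 2563 in DKO, down from 5028 to 6129 at 2 months. In RNA of whole tissue, fewer cells of a type and less RNA per cell cannot be told apart, and the part of these markers in the Cyp2a5 and Nr1i3 differences was not tested.

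Markers of other cells rose with CCl4 as the receptors fell, in a comparison where 33.4% of all genes were higher. All 10 stellate cell and myofibroblast markers were higher, and their sum, 24.7 to 51.6 FPKM in the 2-month columns, was 180.3 to 294 in WT, E1KO and E2KO with CCl4 and 142 in DKO. Of 11 macrophage markers, 9 were higher, with sums from 140.1 to 250.5 at 2 months and 362 to 799 with CCl4. Of 5 tested cholangiocyte markers 4 were higher, and the sum of all 9 listed, mostly Spp1, was 320 to 698 FPKM with CCl4 and 43.1 to 89.5 at 2 months. At 8 months this sum was 305 FPKM in DKO and 29.1 to 44.4 in the other genotypes, with Epcam at 3.83 FPKM in DKO against 0.35 to 0.63 and no marker at 0 in any of the 4. The DKO levels of the 9 genes at 8 months stand beside these higher marker levels. Cldn7 had DKO levels of 1.92 (2 months), 4.70 (8 months) and 6.92 FPKM (CCl4) and 0.20 to 0.51 in the other columns, a fitted DKO difference of 1.95. It met the minimum level through its DKO columns alone, so this is given as a description. Of the 4 cholangiocyte markers that met the minimum in columns outside DKO, 0 were called in DKO against WT. The part of these cells in the results was not tested. Lung, olfactory and intestinal markers of other sites of Cyp2a and Cyp2b expression stayed at or below 1.21 FPKM, save Fabp2, which liver also makes.

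**Figure D4:**
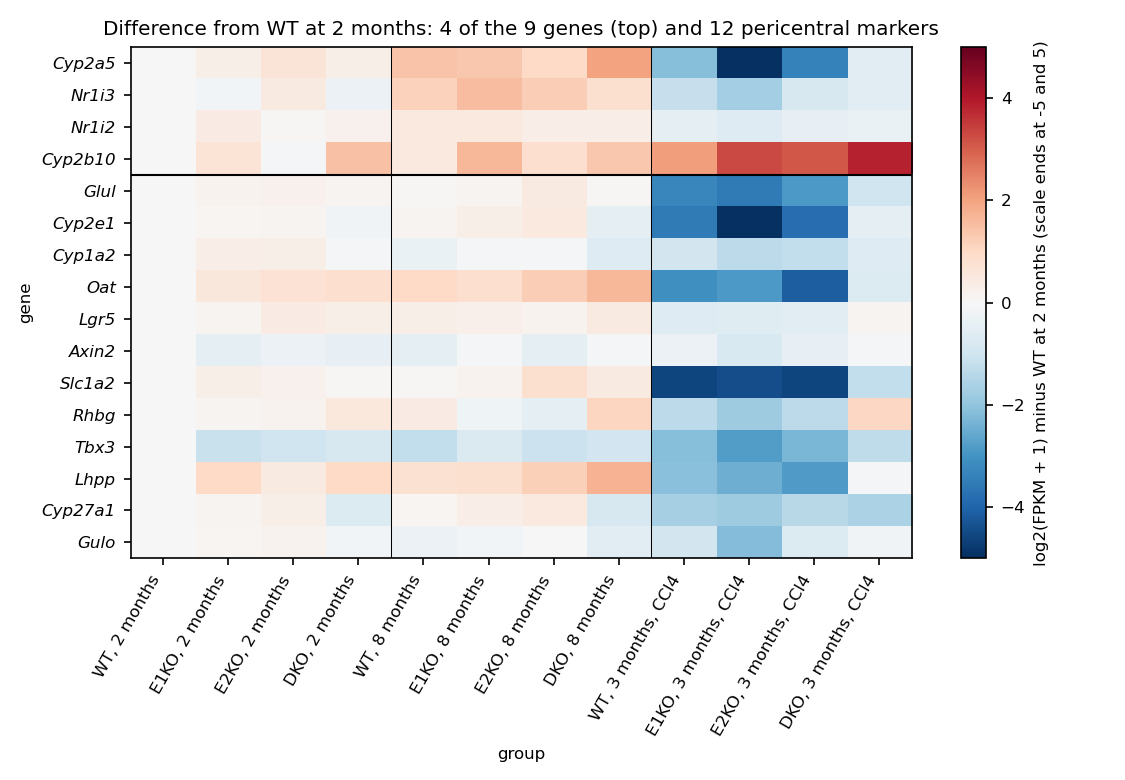
Difference of each group from WT at 2 months in log2(FPKM+1), coloured from blue (lower) to red (higher) with the scale ending at -5 and 5, for Cyp2a5, Nr1i3, Nr1i2 and Cyp2b10 above the line and 12 pericentral markers below it. Columns are the 12 groups in 3 blocks of conditions. Blue fills the CCl4 block of WT, E1KO and E2KO for Cyp2a5, Cyp2e1, Glul, Oat and Slc1a2, and is paler in DKO with CCl4.

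Whether the DKO difference with CCl4 departed from that at 2 months was tested in a fit with DKO-by-condition terms, in which DKO is set against the mean of WT, E1KO and E2KO. None of the 9 genes passed, a count from which nothing is read, since these columns were known when the genes were picked. It stood beside 0.29% of all genes (0.219% higher and 0.0702% lower, 33 genes, with 1047 at an unadjusted p under 0.05 and 1 of the 9). That 1 was Cyp2b9, at 0.79 (SE 0.33). The largest estimates were 3.51 for Cyp2a5 (SE 1.76), 1.27 for Cyp2c55 and 1.04 for Nr1i3. The Cyp2a5 columns show the shape of that estimate, since the CCl4 level was 55.5% of the 2-month level in DKO and 0.59% to 22.7% in the others. Of the pericentral markers, Slc1a2 (3.42, limma adjusted p = 0.0179) and Glul (2.23, limma adjusted p = 0.0471) passed in this comparison and the other 10 did not. Without the 8-month E1KO column Slc1a2 passed and Glul did not (limma adjusted p = 0.120). The 33 calls over all genes became 1 with the minimum level asked of the columns outside DKO, and 300 with no filter. At most 1 of these 2 markers thus passed when the minimum was asked outside DKO.

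Age was compared over the 4 genotypes, 8 against 2 months, with the same 2-month columns as the CCl4 comparison. Nr1i3 rose by 1.18 (SE 0.25, limma adjusted p = 0.0399), by 2.28-fold in WT, 3.26-fold in E1KO, 1.77-fold in E2KO and 2.15-fold in DKO. It was the 1 call among the 9 genes, beside 2.7% of all genes higher and 1.59% lower (4.29% in all), and 5 of the 9 had an unadjusted p under 0.05. Without the column labelled E1KO at 8 months the difference was 0.94 (limma adjusted p = 0.0983), and with each column left out in turn it passed in 3 of 12 cases (E1KO with CCl4, DKO at 8 months and DKO with CCl4). Nr1i3 and Cyp2a5 were higher at 8 months without overlap, as were 6.31% of all genes, while none of the 9 was lower without overlap (5.79% of all). Cyp2a5 had a fitted difference of 1.13 (SE 0.87, limma adjusted p = 0.495), and of 0.59 without the 8-month E1KO column.

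Cyp2b9 and Cyp2b13 had the largest age estimates, 2.72 (SE 0.73, limma adjusted p = 0.0743) and 1.59 (SE 0.43, limma adjusted p = 0.0743). Without the 8-month E1KO column they were 2.29 (limma adjusted p = 0.192) and 1.31 (limma adjusted p = 0.191). DKO carried these genes at 2 months already. Without the 3 DKO columns, the age difference of Cyp2b9 was 3.66 (limma adjusted p = 0.000459), that of Cyp2b13 2.06 (limma adjusted p = 0.0701) and that of Nr1i3 1.22 (limma adjusted p = 0.052). Without DKO at 8 months alone, Cyp2b9 (3.76, limma adjusted p = 0.00038) and Cyp2b13 (2.00, limma adjusted p = 0.0443) passed beside Nr1i3, and without DKO with CCl4 Cyp2b9 did (limma adjusted p = 0.0449). Cyp2b10 at 0.55, Cyp2c55 at 0.34, Nr1i2 at 0.26, Cyp2a4 at 0.09 and Por at -0.03 did not pass. The median over the 9 genes was 0.55, against less than 0.01 in size over all genes. Of 15 age calls among the 9 genes and the listed genes below, 3 passed without the 8-month E1KO column, those of Egfr, Abcb1a and Cyp7b1. Such a loss was not particular to that column. Over all genes, 489 age calls became 127 without it, 115 without DKO at 2 months and 155 without WT at 2 months. Without DKO with CCl4 there were 669.

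The DKO columns of Cyp2b9 stood apart from the other genotypes at 2 months more than at 8 months, which is given as a description because these columns were known when the gene was picked. At 2 months DKO held 27.4 FPKM against 0.09 to 0.51 in the other genotypes, and at 8 months 25.1 against 12.4 to 19.4. DKO was thus at a like level at both ages, and the other 3 genotypes were near it at 8 months only. The difference at 8 months less that at 2 months was -3.78 on the log2(FPKM+1) scale (SE 0.33), and -5.55 with a pseudocount of 0.1 in place of 1. It was the 1 gene of the 9 past the limma threshold, beside 0.0614% of all genes lower and 0.184% higher (0.246% in all), and nothing is read from that count. Cyp2b13 had an estimate of -1.86 (SE 0.84). Cyp2b10 had -0.90 and the remaining 6 genes lay between -0.32 and 0.78.

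Other genes known to answer to CAR and PXR did not move as a block with the 9. Of 46 listed genes 43 were tested. With CCl4, 7 were higher and 13 lower, beside 33.4% of all genes higher and 24.5% lower. Their median was -0.31, against 0.07 for all genes. Gsta1, a glutathione transferase, rose by 2.51 (limma adjusted p = 0.00889), and 3 Cyp2c genes fell: Cyp2c37 by 2.51 (limma adjusted p = 0.0282), Cyp2c38 by 2.46 (limma adjusted p = 0.00168) and Cyp2c54 by 2.42 (limma adjusted p = 0.00259). Cyp3a11, the standard PXR target, had a difference of -0.01 (limma adjusted p = 0.966) and stood at 1578 to 3877 FPKM in the CCl4 columns. Gstm1 fell by 1.07 (limma adjusted p = 0.00364). At 8 months 5 of the 43 were higher and 0 lower, beside 2.7% of all genes higher and 1.59% lower. Among the 5 were Gsta2 (2.13, limma adjusted p = 0.0171), Gstt3 (1.39, limma adjusted p = 0.0157), Aldh1a1 (1.13, limma adjusted p = 0.0296) and the exporter Abcc3 (0.72, limma adjusted p = 0.0498). None of these 4 passed without the 8-month E1KO column (limma adjusted p from 0.0606 to 0.135), while Abcb1a, the fifth, did.

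In DKO against WT, 1 of the 43 targets was higher and none lower, beside 1.81% of all genes higher and 0.816% lower by the same limma rule. The gene was Gadd45b, a stress-induced CAR partner, at 0.82 FPKM (2 months), 0.85 (8 months) and 1.21 (CCl4) in WT and at 2.99, 3.66 and 3.66 in DKO (1.18, limma adjusted p = 0.00726). The DKO difference at 8 months was larger than at 2 months for 1 target, the oestrogen sulfotransferase Sult1e1 (4.45, limma adjusted p = 0.00256), at 32.8 FPKM in DKO at 8 months and 0.25 to 2.12 elsewhere. None of the 43 passed in E1KO or E2KO.

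Of 29 tested partners and regulators of the receptors, 3 were higher with CCl4, 14 were lower and 12 did not pass, beside 33.4% of all genes higher and 24.5% lower. Their median was -0.30, against 0.07 for all genes. The liver factor Cebpa fell by 1.02 (limma adjusted p = 7.95e-05), the corepressor Nr0b2 by 1.00 (limma adjusted p = 0.00193) and the growth factor receptor Egfr, whose signal holds CAR in the cytoplasm, by 0.99 (limma adjusted p = 0.0064). Egr1 rose by 1.56 (limma adjusted p = 0.00377). At 8 months Egfr was the 1 gene of the 29 to pass, falling by 1.82 (limma adjusted p = 0.00707, and 0.0311 without the 8-month E1KO column). It stood at 122 to 183 FPKM at 2 months and at 22.1 to 72.9 at 8 months, so Egfr fell in both comparisons while Nr1i3 rose in one and fell in the other. In DKO 2 pioneer factors were lower than in WT, Foxa1 by -0.78 (limma adjusted p = 0.00777) and Foxa2 by -0.69 (limma adjusted p = 0.0478), and none of the 29 was higher. Without the 8-month E1KO column Foxa1 passed and Foxa2 did not (limma adjusted p = 0.0736). With the minimum level asked of the columns outside DKO, 1 of the 29 was lower in DKO. Foxa1 was also low in E1KO, at 4.18 to 5.0 FPKM against 3.13 to 4.67 in DKO and 6.88 to 8.20 in WT.

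Genes of haem turnover and of electron transfer to P450 enzymes showed 3 of 12 higher and 2 lower with CCl4. Beside them, 33.4% of all genes were higher and 24.5% lower. Haem oxygenase Hmox1 rose by 1.44 (limma adjusted p = 0.00591), while cytochrome b5 reductase Cyb5r3 fell by 0.96 (limma adjusted p = 0.000518) and the haem-binding Pgrmc1 by 0.67 (limma adjusted p = 0.00441). At 8 months Pgrmc2 (0.61, limma adjusted p = 0.0275) and Cpox (0.48, limma adjusted p = 0.0491) were higher, and neither passed without the 8-month E1KO column. None of the 12 was called in DKO.

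Of 8 listed neighbours of the Cyp2a and Cyp2b genes in the cluster, 4 passed the minimum level, and none was called in DKO. Cyp2b19 and Cyp2b23 stood at or below 0.02 FPKM in every column, DKO included. Cyp2a12 was at 262 to 580 FPKM in all columns. Cyp2a22, next to Cyp2a5, was highest in DKO in each condition, at 6.39, 16.6 and 4.17 FPKM against 1.40 to 1.77, 2.51 to 6.54 and 2.44 to 3.12 in the other genotypes, without a call. It rose with age by 1.13 (limma adjusted p = 0.0464), but did not pass without the 8-month E1KO column (limma adjusted p = 0.132). Cyp2f2, a periportal gene, was low in DKO with CCl4 at 51.7 FPKM, against 288 to 502 in the other genotypes, the reverse of Cyp2a5. With CCl4 3 of the 4 were lower, beside 24.5% of all genes: Cyp2f2 by -1.82, Cyp2g1 by -1.05 and Cyp2a12 by -0.63.

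Most other Cyp2c genes were lower with CCl4, where Cyp2c55 had an estimate of 0.63. Of 12 tested, 10 were lower and none higher, beside 24.5% of all genes lower and 33.4% higher. Their median was -1.68, and Cyp2c40 fell by 2.79 (limma adjusted p = 0.0103). In DKO against WT, 1 was lower, Cyp2c67 by -1.39 (limma adjusted p = 0.0452), and none was higher. With the minimum level asked of the columns outside DKO, none of the 12 was called there. At 8 months Cyp2c70 fell by 1.30 (limma adjusted p = 0.0139). Without the 8-month E1KO column neither Cyp2c67 (limma adjusted p = 0.0630) nor Cyp2c70 (limma adjusted p = 0.0519) passed.

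Cyp2a4, Cyp2b9 and Cyp2b13 are known as female-biased genes, so other genes of that kind and the male-biased P450 genes were set beside them. Of 11 tested female-biased enzyme genes outside the 9, 1 was called in DKO against WT, beside 1.81% of all genes higher. It was Cyp17a1, at 29.4 FPKM in DKO at 2 months and 6.31 to 10.3 in the other genotypes (1.93, limma adjusted p = 0.0121). The fitted DKO difference was positive in all 9 that passed the minimum level in columns outside DKO, with a median of 1.72 against -0.05 for all genes. Fmo1 was among these 9, at 0.02. Nothing is read from this count, since the list was chosen with earlier results of these data known. At 2 months Cyp2c40 stood at 73.8 FPKM in DKO against 4.79 in WT, 14.99 in E1KO and 0.61 in E2KO, and Cyp2c69 at 89.5 against 4.46 to 15.7, neither with a call. Neither was raised in DKO at 8 months, where Cyp2c40 stood at 0.86 FPKM against 0.13 to 0.92 and Cyp2c69 at 1.58 against 1.6 to 3.91. With CCl4 they stood at 3.25 against 0.03 to 0.05 and at 3.8 against 1.01 to 2.01. As for Cyp2b9, the DKO difference was smaller at 8 months than at 2 months for Cyp3a44 (-2.14, limma adjusted p = 0.0107, and 0.0554 without the 8-month E1KO column). Cyp3a44 stood at 5.63 FPKM in DKO at 2 months and 0.42 at 8 months, against at most 0.46 in the other untreated livers. For Cyp3a44 the DKO level was low at 8 months, whereas for Cyp2b9 the other genotypes were high. Of 6 male-biased P450 genes, 2 were lower in DKO, beside 0.816% of all genes. These were Cyp7b1 by -1.20 (limma adjusted p = 0.0234) and Cyp2j5 by -0.62 (limma adjusted p = 0.0457, and 0.0551 without the 8-month E1KO column). With the minimum level asked of the columns outside DKO, 1 of the 6 male-biased genes was lower. All 6 were lower with CCl4, beside 24.5% of all genes.

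None of the 13 tested growth hormone and sex-bias regulators was called in DKO. With CCl4, 5 of them were lower, beside 24.5% of all genes. Among the 5 were the growth hormone receptor Ghr (-1.20, limma adjusted p = 0.000356), Bcl6 (-0.97, limma adjusted p = 0.025) and Igf1 (-0.82, limma adjusted p = 0.00357). Esr1 was higher (1.08, limma adjusted p = 0.000111), as were 33.4% of all genes. Cux2, a female-specific regulator too low to be tested, stood at 0.95 FPKM in DKO at 2 months and 0.63 in DKO with CCl4, and at or below 0.04 in the other 10 columns. Because the sex of the animals is not given, the part of sex in these levels was not tested.

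Genes whose levels over the 12 columns were most like those of the 9 were named by Pearson correlation of log2(FPKM+1), as a description over columns that share genotypes and conditions. For Cyp2a4 they were Tuba8 (0.94), C1qtnf4 (0.94), Taf1c (0.93) and Entpd2 (0.92). For Cyp2a5 they included Rgn (0.96), Inmt (0.95) and Pipox (0.95). For Cyp2b9 they were Hao2 (0.91), Rai2 (0.89), Sult2a7 (0.89) and Atp6v0d2 (0.89). Hao2, a peroxisomal hydroxyacid oxidase, stood at 27.1 FPKM in DKO at 2 months against 0.08 to 0.18 in the others, at 2.08 to 4.51 at 8 months, and at 13.5 in DKO with CCl4.

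For Cyp2b10 the most alike genes were Ptgis (0.98), Tspan17 (0.97), Nxn (0.96) and Sccpdh (0.96). For Cyp2b13 they were Kctd2 (0.94), Mogat1 (0.91), Olig1 (0.90) and 0610012H03Rik (0.89). For Cyp2c55 they were Cldn7 (0.97), Slc25a36 (0.97), Entpd2 (0.96) and Cdkn1c (0.95), so Entpd2 was near both Cyp2a4 and Cyp2c55, which had an r of 0.94 with each other. For Nr1i3 they were Gckr (0.97), Gcgr (0.97), Osbpl8 (0.96) and Pbld2 (0.96). Gcgr, the glucagon receptor, lay at 68.8 to 100.3 FPKM in the 2-month columns, 90.4 to 129.9 in the 8-month columns and 49.4 to 64.3 with CCl4. Within the 9 genes, Nr1i3 had an r of 0.89 with Nr1i2 and 0.86 with Cyp2a5, but -0.61 with Cyp2b10, and Cyp2a4 had an r of 0.26 with Cyp2a5.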

How the data were processed

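RNA-seq of mouse liver covered 12 groups, 4 genotypes in 3 conditions. TruSeq libraries took 1 ug of RNA each, per the labels' protocols. The authors deposited 1 table of FPKM values for 22520 genes with 1 column per group, to 2 decimals. The submitters' processing notes name CASAVA, TopHat, Cufflinks, BWA, SICER, HOMER and mm9 for the series without versions. The sources used here do not say how replicates were combined. Depth is unknown, so no counting interval is given. The 9 ChIP-seq samples were not analysed here.

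The 11394 genes that reached 1 FPKM in 2 or more columns were fitted as log2(FPKM + 1) with limma 3.58.1 in R 4.3.3 (genotype plus condition, 6 residual degrees of freedom, eBayes with trend). A fold on this scale understates the change of low genes. The spread is each gene's departure from the additive fit. It holds noise and genotype-by-condition differences, and no p-value measures the spread between animals. A second fit added DKO-by-condition terms (4 residual degrees of freedom). P-values are two-sided, with Benjamini-Hochberg adjustment over all tested genes at 0.05. The script was tested on simulated data. The 9 genes and all lists were chosen with earlier results of these data known. Named genes are the 9, Ezh1 and Ezh2; per comparison and list up to 4 called genes with the largest difference and the 2 with the highest mean; and the 4 genes most correlated with each of 7 of the 9. Markers and some neighbouring genes were also named after their values were seen. Some genes that this rule names are not reported here. Promoter windows were read from a RefSeq table (GRCm38.p6) and neighbour order from the same build. Alternatives were pseudocounts of 0.1 and 5, other filters, median-of-ratios scaling, no trend, Cyp2a4 and Cyp2a5 summed, and columns left out; leaving out each of the 12 columns in turn and a filter on the 9 columns outside DKO were added after the data were seen.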

Additional observations from a re-analysis of the deposited data

Results flagged for a closer look

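The Cyp2b9 difference between DKO and the other genotypes was larger at 2 months than at 8 months. The columns compared were known when the gene was picked, so the p-values here are not independent evidence of the difference. On the log2(FPKM+1) scale the difference at 8 months minus that at 2 months was -3.78 (limma adjusted p = 0.00757). DKO stood at 27.4 FPKM at 2 months and 25.1 at 8 months, whereas WT went from 0.09 to 14.8, E1KO from 0.30 to 19.4 and E2KO from 0.51 to 12.4. Over the 18 other settings run, the estimate ran from -5.55 to -2.05 and the limma adjusted p from 0.00324 to 0.175.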

How the results depend on the processing

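The count of called genes among the 9 was 4 to 5 for CCl4 over 21 other settings, 0 for E1KO and for E2KO over 23 each and 0 for DKO by CCl4 over 18. For 8 against 2 months it was 1, 0 with no filter on low values, and 0 to 3 with 1 column left out, with 0 in 9 of 12 such cases. For DKO by 8 months it was 1, 0 with a pseudocount of 0.1, and 1 to 2 with 1 column left out. Each DKO term by condition could not be fitted without DKO at 2 months or without the DKO column of its own condition. In the DKO description, 4 to 6 genes were at least 1 higher. Over all genes, calls ranged from 5586 to 8097 for CCl4, from 115 to 669 for 8 months, from 1 to 300 for DKO by CCl4, from 3 to 328 for DKO by 8 months, from 0 to 4 for E1KO and from 0 to 1 for E2KO, and from 132 to 583 were at least 1 apart in DKO. No setting moved the median of all genes by over 0.1. No result of the 9 genes that had been called changed direction. The cause of the changed counts was not tested. No paired analysis was possible because each group has 1 value. The main limits are that 1 value per group hides the spread between animals, that depth is unknown, and that reads of near-identical Cyp2 genes may be split between them.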
